A study of Drosophila melanogaster with 30 samples.

Results

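Cut posterior fragments of Drosophila melanogaster prothoracic (foreleg) imaginal discs were set against the same region of uncut discs, both after 12 h of culture. The probe sets described are all 1480 rows of the authors' table of cut comparisons, of 18952 probe sets measured. Gene names came with 1365 of these rows and covered 1314 distinct genes. The authors kept a probe set in that table where an overall test of 4 cut comparisons, this one among them, gave an adjusted p of at most 9.99e-04, so a gene absent from it is not listed rather than unchanged.

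The cut group held 3 arrays of discs cut to the posterior 3/4, cultured for 12 h in the abdomen of an adult female fly, from which the GFP-positive region was then isolated. The uncut group held 3 arrays of discs cultured whole for as long, from which the matching posterior region was taken. Values of 4 further groups are given where a result turns on them: the cut and uncut anterior 1/4 at 12 h, and the cut and uncut posterior 3/4 at 24 h. A seventh group, the posterior region of discs taken fresh at 0 h, shows where the uncut discs had moved during culture. Every group had 3 arrays, and all discs, the controls included, came from male larvae aged 100 h. They were w/Y, carried AyGAL4 and UAS-GFP over a wild-type chromosome (+), and had the insertion puc[E69-I]-GAL4 opposite UAS-flp. In this genotype a GAL4 insertion in puc, a phosphatase gene switched on by JNK signalling, drives flippase and so marks cells and their descendants with GFP. The labels describe GFP selection for cut discs only, so the effect of the cut and that of the isolation cannot be told apart. RNA went through 2 rounds of amplification before hybridization to Affymetrix arrays.

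Imaginal discs are epithelial sacs that form the adult appendages and regrow after injury. Wounding switches on the JNK pathway at the cut edge, which induces secreted signals: the Upd cytokines, which act through JAK/STAT on survival and growth, and the relaxin-like peptide Dilp8, which delays metamorphosis while the disc repairs itself. Regrowth also draws on the machinery of protein synthesis, on matrix-cutting enzymes and on changes in cell fate.

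Each value below is the authors' log2 expression of a probe set on 1 array, relative to the mean of that probe set over all 30 arrays. It can be compared between arrays but not between genes. Differences are log2 fold changes, cut minus uncut, tested with limma with Benjamini-Hochberg adjustment across the 18952 probe sets, and a gene rose or fell where the adjusted p was under 0.05. Intervals are 95% intervals of the same fit. Precision is limited by how few arrays each group has: the median standard error of a log2 fold change over the 1480 rows was 0.14.

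By correlation, the number 1 array stood apart in both groups. Across probe sets, the cut arrays 2 and 3 correlated at r = 0.56 and array 1 with them at 0.25 and 0.27, while uncut arrays 2 and 3 correlated at 0.69 and array 1 with them at 0.32 each. These correlations run across probe sets, which are not independent, and describe the arrays only. Since the values are centred, r here measures shared departures from each probe set's mean, not agreement of levels. The median absolute log2 difference was 0.154 and 0.160 between cut array 1 and the others, against 0.098 between cut arrays 2 and 3. For the uncut arrays it was 0.110 and 0.112, against 0.095, so array 1 differed less there. The cause was not tested, and counts without both number 1 arrays are given below.

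Of the 1480 listed probe sets, 669 passed the threshold, 320 of them higher and 349 lower in cut than in uncut posterior fragments. Over the whole array 948 probe sets passed (5.0%), 378 higher (1.99%) and 570 lower (3.01%). Within the list the shares were 45.2% in all, 21.6% higher and 23.6% lower, and since the comparison helped to choose the rows, nothing is read from the contrast with the whole array. The log2 fold changes of the rows ran between -2.07 and 1.97 with a median of -0.07, against a median of 0.01 over all probe sets. At least 2-fold changes were few, with 30 rows higher and 42 lower. The 3 cut arrays lay above the 3 uncut arrays for 579 rows and below them for 615 (80.7% together), and over the whole array the groups did not overlap for 23.4% of probe sets (11.7% in each direction). Of the 4 k-means clusters in the authors' deposited table, clusters I and II, with 158 and 590 rows, had median log2 fold changes of 0.46 and 0.42 here, and clusters III and IV, with 95 and 637 rows, of -0.38 and -0.45.

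The count over the array depended on single arrays. It was 627, 548 and 453 without cut array 1, 2 or 3, and 876, 395 and 397 without uncut array 1, 2 or 3. Without both number 1 arrays 579 probe sets passed, 132 of them higher.

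**Figure D1:**
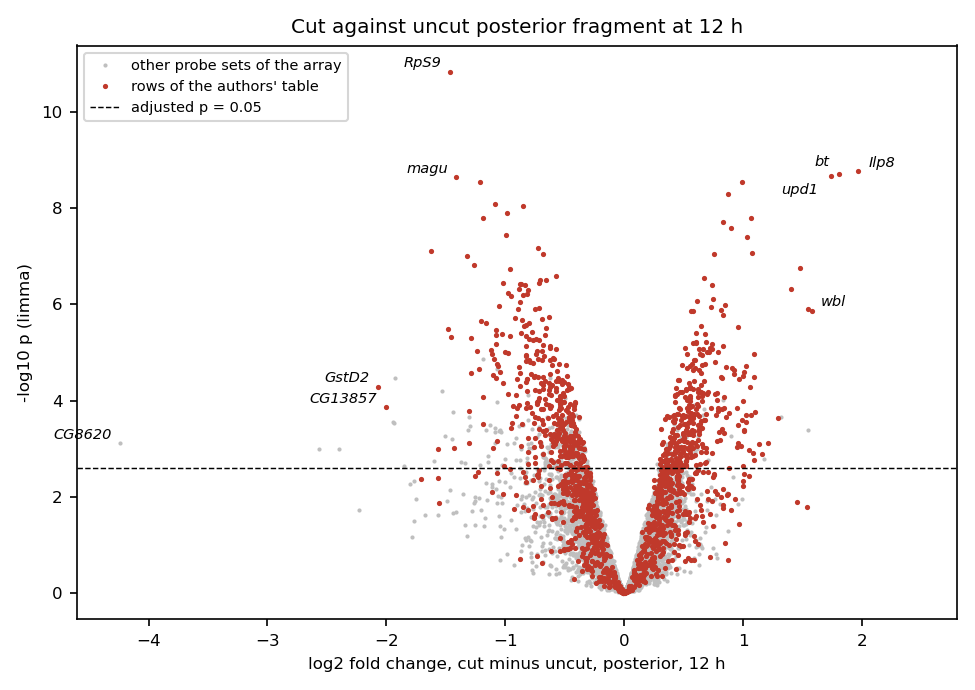
Log2 fold change of cut over uncut posterior fragments at 12 h (horizontal axis) against -log10 of the unadjusted limma p (vertical axis), 1 point a probe set; red points are the 1480 listed rows, grey points the other probe sets of the array, and the dashed line marks an adjusted p of 0.05. RpS9 has the smallest p, Ilp8 is the listed gene farthest to the right at 1.97, and CG8620, at -4.24, is not in the authors' table.

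Genes of the wound response included the largest rises. Ilp8, which encodes Dilp8, had values of 1.65, 1.39 and 1.40 on the cut arrays, against -0.49, -0.31 and -0.66 on the uncut arrays. The groups were far apart, and the uncut cultured discs themselves stood above the fresh discs, at -1.70, -1.37 and -1.67. The rise was 3.92-fold (2.88 to 5.32, limma adjusted p = 7.90e-06) and passed the threshold in all 6 refits that left out 1 array. upd1, a JAK/STAT ligand that the table lists as upd, had 1.18, 0.62 and 0.85 in cut fragments, against -0.42, -0.83 and -1.32 in uncut ones, with the lowest cut array well above the highest uncut array. Its rise was 3.34-fold (2.54 to 4.39, limma adjusted p = 7.90e-06) and also held in all 6 refits. Quantile normalization once more made the log2 rises larger, at 3.33 for Ilp8 and 3.26 for upd1. That step was run on centred values and gives every array the same spread of deviations, so the larger sizes are not read as support. The related ligand upd3 moved far less: 0.16, 0.38 and 0.22 in cut against -0.16, -0.15 and -0.09 in uncut fragments, a rise of 1.31-fold (1.13 to 1.52, limma adjusted p = 0.0245). That call stood in 1 of 6 refits, with a highest adjusted p of 0.13 without cut array 2.

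The JAK/STAT list had 5 genes in the table, of which these 2 ligands rose and none fell, with a list median of 0.39. Over all listed rows 21.6% rose. The Janus kinase gene hop had a log2 fold change of -0.24 (limma adjusted p = 0.182). The phosphatase Ptp61F, an inhibitor of the pathway, had 0.30 and 0.39 on its 2 probe sets (limma adjusted p = 0.353 and 0.0974). The transcription factor chinmo, a pathway target that keeps cells in an immature state, had -0.17 and -0.39 (limma adjusted p = 0.869 and 0.654). chinmo was already high in uncut cultured fragments, with 0.54, 0.16 and 0.05 on the cut arrays and 0.59, 0.37 and 0.29 on the uncut arrays, against -2.70, -2.08 and -1.96 on the fresh arrays. Without both number 1 arrays, 1 gene of this list rose.

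Of 5 listed genes of the JNK pathway and its targets, 3 rose and none fell, with a median of 0.78, beside 21.6% of all rows that rose. Ets21C, which encodes an ETS-domain factor that JNK switches on, had 0.87, 0.50 and 0.66 in cut fragments, against 0.00, -0.43 and -0.40 in uncut ones. Pvf1, a growth factor related to vertebrate PDGF and VEGF, had 0.56, 0.43 and 0.41 in cut and -0.92, -0.51 and -0.02 in uncut fragments. scaf, a secreted protease-like protein that restrains JNK, had 0.71, 0.51 and 0.54 in cut and 0.05, -0.25 and -0.38 in uncut fragments. For all 3 genes the cut arrays were closer together than the uncut ones. The groups did not overlap in any of them, but that held for 80.7% of all listed rows, so nothing is read from it. The rises were 1.94-fold (1.4 to 2.69), 1.93-fold (1.43 to 2.62) and 1.72-fold (1.29 to 2.29), with limma adjusted p of 0.0141, 0.0087 and 0.0234 in the order Ets21C, Pvf1, scaf. They passed in 3, 5 and 1 of the 6 refits, and their highest adjusted p were 0.0752 without uncut array 2, 0.0579 without uncut array 1 and 0.122 without uncut array 3. Without both number 1 arrays none of the 3 passed. The JNK ligand egr had a log2 fold change of -0.49 (limma adjusted p = 0.0928) and the receptor Pvr, which binds Pvf1, of 0.04 (0.962). puc, whose insertion drives the reporter, is not listed in the authors' table.

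**Figure D2:**
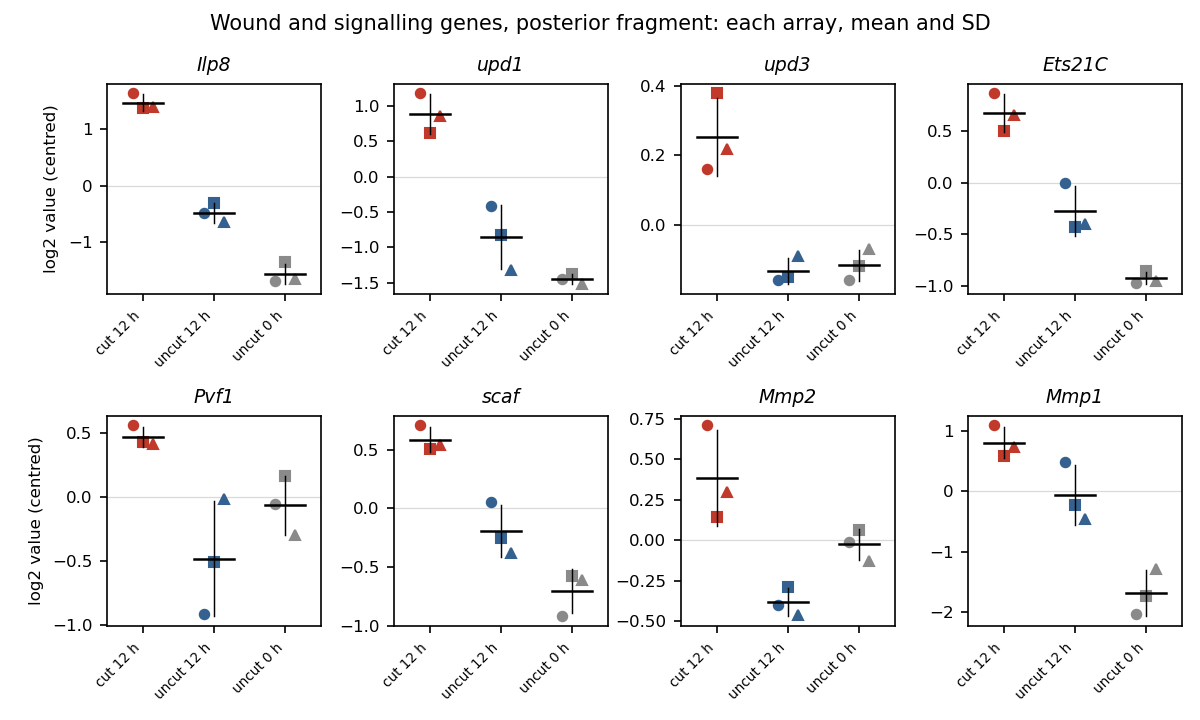
Log2 values of 8 wound and signalling genes on each array of the cut 12 h, uncut 12 h and uncut 0 h posterior groups (circle, square and triangle are arrays 1, 2 and 3; bars are the mean, lines the SD, n = 3 a group). Ilp8, upd1 and Ets21C show 3 steps, with cut above uncut cultured and uncut cultured above fresh discs, while the Mmp1 probe set drawn had 0.49 on uncut array 1 and 0.59 on cut array 2.

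Of 7 listed genes for wound closure and growth delay, 2 rose (Ilp8 and Mmp2) and 2 fell (Duox and grh). Over all listed rows 21.6% rose and 23.6% fell. The list median was -0.01, so the list as a whole did not stand out and only single genes are described. Mmp2, a matrix metalloproteinase anchored to the cell surface, had 0.71, 0.14 and 0.30 in cut fragments, against -0.40, -0.29 and -0.46 in uncut ones, a rise of 1.71-fold (1.32 to 2.2, limma adjusted p = 0.011). Its call was lost without cut array 1 (adjusted p = 0.0778) and without uncut array 3 (0.0561). The other metalloproteinase, Mmp1, a standard target of JNK at wounds, passed on none of its 3 probe sets. Their log2 fold changes were 0.88, 0.61 and -0.07, with limma adjusted p of 0.109, 0.208 and 0.953. On the probe set with the smallest p, Mmp1 had 1.10, 0.59 and 0.74 in cut fragments and 0.49, -0.22 and -0.46 in uncut cultured ones, against -2.04, -1.74 and -1.28 in fresh discs. Both cultured groups thus lay above the fresh discs, and the cut arrays stood above the uncut ones by less than the threshold asks.

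Duox, the oxidase that releases hydrogen peroxide, had -0.16, -0.33 and -0.23 in cut fragments, against 0.19, 0.35 and 0.56 in uncut ones, a fall of 1.52-fold (1.29 to 1.8, limma adjusted p = 0.00239). grh, an epidermal transcription factor used in wound repair, fell by 0.32 on the log2 scale (limma adjusted p = 0.0484), and this call was lost in each of the 6 refits. The remaining members, rgn, a C-type lectin gene needed for regeneration, and Ddc, which makes dopamine for hardening wounded cuticle, had log2 fold changes of -0.01 (limma adjusted p = 0.993) and -0.69 (0.689).

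The other large rises fell into those seen over fresh discs as well and those that left cut fragments below fresh discs. bt, the gene of projectin, a giant protein of muscle, had 0.73, 1.10 and 0.69 in cut fragments, against -0.56, -1.10 and -1.25 in uncut ones and -1.34, -1.15 and -1.67 in fresh discs, a rise of 3.5-fold (2.64 to 4.65, limma adjusted p = 7.90e-06). acs (listed as CG1139), of a family of amino acid transporters, had 0.51, 0.74 and 0.63 in cut and -1.11, -0.59 and -0.64 in uncut fragments, a rise of 2.65-fold (1.96 to 3.57, limma adjusted p = 2.41e-04). In both genes the cut arrays stood clear of the uncut and fresh arrays. CG5958, CG1092 and Karl, the last a gene of the lipocalin family, rose by 1.21, 1.16 and 1.13 on the log2 scale (limma adjusted p = 0.0243, 0.033 and 0.0248), each in 2 of the 6 refits. The other probe set of Karl had 0.75 (limma adjusted p = 0.0672).

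wbl, an endoplasmic reticulum protein related to disulfide isomerases, had 0.24, 0.09 and 0.73 in cut fragments, against -1.44, -1.02 and -1.24 in uncut ones. Fresh discs had 3.30, 2.82 and 2.10, far above both cultured groups. The rise of cut over uncut was 3-fold (2.09 to 4.3, limma adjusted p = 4.60e-04). ImpE1, a membrane protein gene named for its induction by ecdysone in discs, had 0.69, 0.41 and 0.69 in cut and -1.33, -0.87 and -0.64 in uncut fragments, with 2.05, 1.90 and 1.5 in fresh discs. It rose 2.92-fold (2.06 to 4.14, limma adjusted p = 4.45e-04). A second listed probe set rose 2.45-fold (limma adjusted p = 0.0118), and the remaining one, not in the table, was 1.75-fold higher without passing (0.147). CG12288 had 0.96, 0.52 and 0.47 in cut, -1.08, -0.98 and -0.44 in uncut and 1.22, 1.35 and 0.93 in fresh fragments, a rise of 2.8-fold (2.08 to 3.76, limma adjusted p = 1.33e-04). For wbl and ImpE1 the cut arrays thus lay between the uncut cultured and the fresh arrays, while for CG12288 cut array 1 reached the lowest fresh array.

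The smallest p of the array belonged to a fall. RpS9, a protein of the small ribosomal subunit, had -0.65, -0.77 and -0.76 in cut fragments, against 0.69, 0.65 and 0.86 in uncut ones, 2.76-fold lower (2.3 to 3.31, limma adjusted p = 2.74e-07). Fresh discs, at -0.40, -0.74 and -0.51, lay near the cut arrays. A second RpS9 probe set, not in the table, was 1.29-fold lower (1.11 to 1.51, limma adjusted p = 0.0491), so the 2 probe sets differed in size. magu (listed as Pent), a secreted protein that widens the reach of the Dpp morphogen, had -0.84, -0.93 and -1.29 in cut fragments, against 0.16, 0.61 and 0.41 in uncut ones. Fresh discs were at the uncut level, with 0.21, 0.44 and 0.32. The fall of magu was 2.66-fold (2.13 to 3.33, limma adjusted p = 7.90e-06) and held in all 6 refits.

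Several large falls came with a high level in uncut cultured discs. GstD2, a glutathione transferase of the detoxification response, had 0.83, 0.31 and 0.46 in cut fragments, against 1.42, 3.31 and 3.07 in uncut ones and -1.12, -0.86 and -0.85 in fresh discs. Uncut arrays 2 and 3 were the high ones, and the cut arrays lay between the fresh and the uncut cultured arrays. The fall was 4.2-fold (2.29 to 7.71, limma adjusted p = 0.0047), and it was lost under quantile normalization once more (log2 -1.27, limma adjusted p = 0.0551). CG8170 had -0.81, -0.62 and -0.83 in cut fragments, against 0.55, 1.15 and 0.91 in uncut ones and -1.23, -0.83 and -1.05 in fresh discs, a fall of 3.09-fold (2.26 to 4.21, limma adjusted p = 7.77e-05). Cpr66D, a cuticle protein gene, had -1.42, -0.87 and -0.91 in cut and 0.10, 0.77 and 0.37 in uncut fragments, with -2.24, -1.89 and -2.23 in fresh discs, a fall of 2.79-fold (1.96 to 3.98, limma adjusted p = 8.52e-04). These 3 genes were higher in uncut 12 h than in fresh posterior discs by 3.54, 1.91 and 2.53 on the log2 scale, a comparison that shares the uncut 12 h arrays.

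A second kind of fall took cut fragments below both other groups. CG13857 had -0.89, -0.02 and -1.43 in cut fragments, against 0.79, 1.55 and 1.33 in uncut ones and 2.14, 1.74 and 1.45 in fresh discs, a fall of 4.02-fold (2.12 to 7.6, limma adjusted p = 0.00862). It was lost without cut array 3 (adjusted p = 0.0702) and without uncut array 2 (0.054). Obp99a, an odorant-binding protein gene, had -0.53, -1.23 and -0.71 in cut and 0.43, 0.48 and 0.99 in uncut fragments, with 1.56, 1.39 and 1.28 in fresh discs, and fell 2.75-fold (1.92 to 3.93, limma adjusted p = 0.00109). For Obp99a all uncut cultured arrays lay below the fresh arrays, while for CG13857 these 2 groups overlapped.

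**Figure D3:**
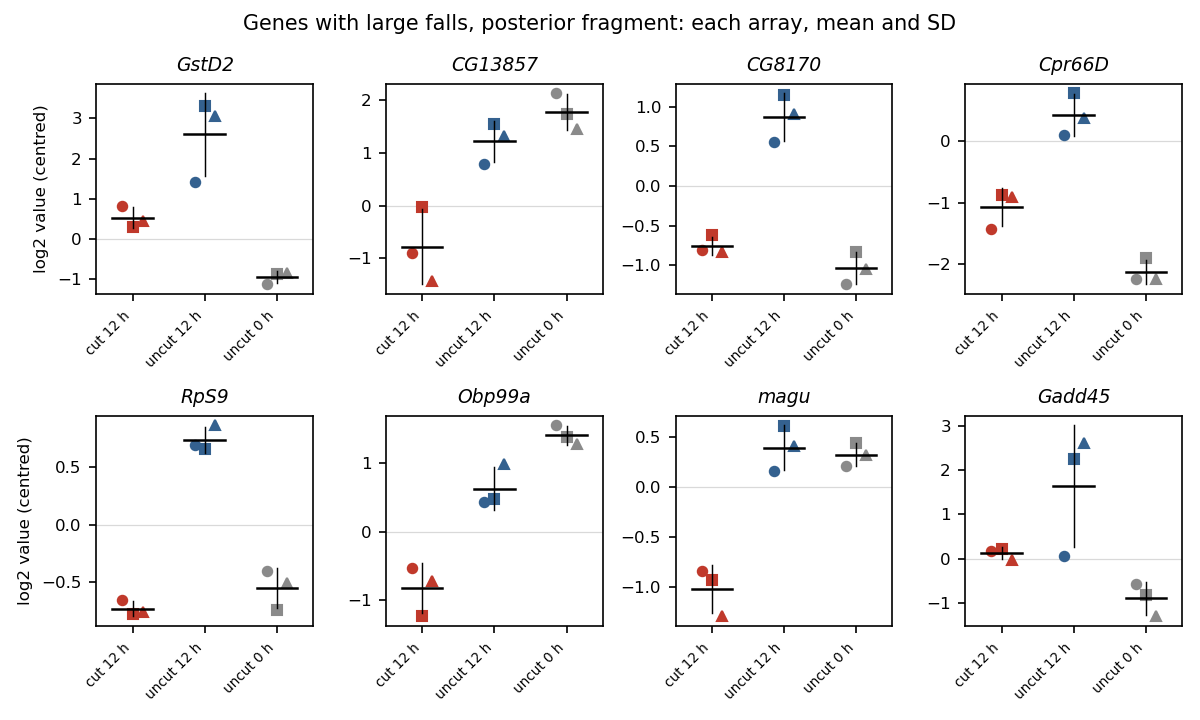
Log2 values of 8 genes with large falls on each array of the cut 12 h, uncut 12 h and uncut 0 h posterior groups (symbols, bars and lines as for the wound genes: array number, mean and SD, n = 3 a group). GstD2 and Gadd45 show uncut arrays 2 and 3 far above uncut array 1, RpS9 shows tight groups, and magu has uncut and fresh arrays at one level.

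Of 22 listed genes for making ribosomes, 19 rose and none fell, with a median log2 fold change of 0.59, against a background of 21.6% of rows that rose. NHP2, a protein of the small nucleolar RNA particles that modify ribosomal RNA, had 0.48, 0.19 and 0.34 in cut and -0.79, -0.74 and -0.57 in uncut fragments, a rise of 2.05-fold (1.69 to 2.48, limma adjusted p = 4.39e-05). hoip, a component of such particles, rose 1.99-fold (1.7 to 2.33), the nucleolar protein Nopp140 1.78-fold (1.47 to 2.15) and the box C/D particle protein nop5 1.73-fold (1.41 to 2.13). Over the 22 genes the mean value was 0.41, 0.05 and 0.09 on the cut arrays, against -0.34, -0.48 and -0.41 on the uncut arrays. Fresh discs were at 0.46, 0.43 and 0.37, so cut array 1 was close to fresh discs and cut arrays 2 and 3 lay between.

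Mitochondrial and proteasome genes ran the same way, and the share of all rows that rose, 21.6%, stands beside each count. Of 28 mitochondrial ribosomal protein genes, 16 rose and 1 fell (median 0.39), among them mRpS33, which rose by 0.68, mRpL51 by 0.62 and mRpS18C by 0.61 on the log2 scale. The exception, mRpS28, had -0.28, -0.34 and -0.36 in cut fragments, against 0.39, 0.55 and 0.21 in uncut ones, and fell 1.63-fold (1.41 to 1.89, limma adjusted p = 2.00e-04). Of 31 genes of the respiratory chain and ATP synthase, 16 rose and none fell (median 0.35). The log2 fold change was above 0 for all 31. Cytochrome c, Cyt-c-p, which carries electrons between respiratory complexes, had 0.44, 0.16 and 0.28 in cut and -0.45, -0.60 and -0.70 in uncut fragments, a rise of 1.84-fold (1.59 to 2.12, limma adjusted p = 1.19e-05). ND-B15, COX8 and COX7A rose by 0.74, 0.67 and 0.58 on the log2 scale. Of 13 proteasome genes 7 rose and none fell (median 0.39), the largest being the assembly factor Pomp at 0.53.

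These counts depended on several single arrays. In limma, 9 ribosome-making, 4 mitochondrial ribosomal, 6 respiratory and 0 proteasome genes rose without cut array 1. Without uncut array 2 the counts were 10, 7, 6 and 0, and without uncut array 3 they were 11, 8, 9 and 3. Without cut array 3, 8 mitochondrial ribosomal, 10 respiratory and 4 proteasome genes rose, and without uncut array 1, 4 proteasome genes. The 4 lists had been lower in uncut 12 h than in fresh posterior discs, by medians of 0.84, 0.71, 0.62 and 0.74 in that order on the log2 scale, a comparison that shares the uncut arrays.

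Most of the listed genes for proteins of the cytoplasmic ribosome went the other way. Of 14 listed genes, 8 fell and 1 rose, with a median of -0.45, against 23.6% of rows that fell. Beside RpS9, RpL12 had -0.50, -0.37 and -0.49 in cut fragments, against 0.72, 0.67 and 0.88 in uncut ones, 2.31-fold lower (1.9 to 2.8, limma adjusted p = 7.90e-06). Its other listed probe set was 1.39-fold lower (1.15 to 1.67, limma adjusted p = 0.0335). RpL3 fell 2.08-fold (1.64 to 2.63, limma adjusted p = 4.28e-04). The gene that rose, RpLP0-like, by 1.72-fold (1.35 to 2.19, limma adjusted p = 0.00697), is only related to the stalk protein P0. The count that fell was 4 without cut array 3, 5 without cut array 2 or uncut array 2, and between 6 and 10 without any other array.

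**Figure D4:**
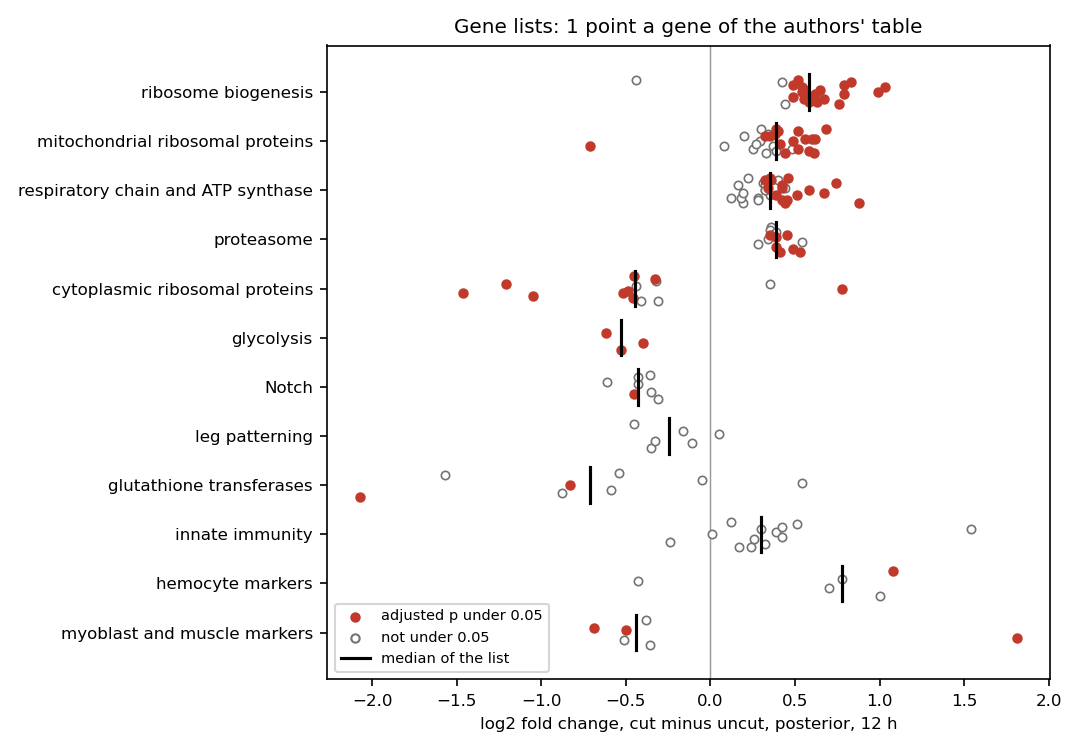
Log2 fold change of cut over uncut posterior fragments at 12 h for the listed genes of 12 gene lists, 1 point a gene (the probe set with the smallest p); filled red points had an adjusted p under 0.05, open points had not, and the black bar is the list's median. The 4 growth lists at the top lie right of 0 except for mRpS28 and 1 ribosome-making gene, and the cytoplasmic ribosomal proteins lie left of it except for 2 genes.

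All 3 listed glycolysis genes fell: Pfk, the rate-controlling phosphofructokinase, by 0.62, aldolase (Ald1, listed as Ald) by 0.53 and Pgi by 0.40 on the log2 scale. A second Ald1 probe set had -0.25 (limma adjusted p = 0.18), and the Pgi call was lost without cut array 2 or 3 or uncut array 2 or 3 (highest adjusted p = 0.117). Of 8 glutathione transferase genes 2 fell, a share near the 23.6% of all rows that fell: GstD2 and, by 0.83, GstT4 (limma adjusted p = 2.09e-04). In the cell death list, chrb and scyl fell by 0.89 and 0.76, and both are also known as inhibitors of TOR growth signalling. Of 7 cuticle genes 3 fell: Cpr66D, Gld by 1.01 and the chitin deacetylase gene Cda4 by 0.56. None of the 13 listed immune genes passed in limma (3 had an unadjusted p under 0.05), though 12 of the 13 log2 fold changes were above 0, among them Dif at 0.39 (limma adjusted p = 0.0807), PGRP-SA at 0.42 (0.275) and the stress peptide gene TotM at 1.54 (0.163).

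Signalling and patterning lists mostly had values below 0 that did not pass. Over all listed rows 21.6% rose and 23.6% fell, and these lists are small, so nothing is read from their counts. Of 7 Notch genes 1 fell, the transcription factor Su(H), by 0.45 (limma adjusted p = 0.0276), and the log2 fold change of all 7 was below 0. No Wnt gene of 3 and no leg patterning gene of 6 passed in limma (2 and 1 had an unadjusted p under 0.05), and magu was the only gene of 4 in the Dpp and Activin list that did. The leg patterning genes ran between -0.45 for ap and 0.05 for bab1. Of 8 ecdysone-response genes, ImpE1 and Cth (listed as Eip55E) rose, and ftz-f1 and Eip74EF, a nuclear receptor and an ETS factor of the hormone cascade, fell by 0.82 and 0.53. Of 4 Polycomb and trithorax genes, ash2 and trx, both of the trithorax group, fell by 0.46 and 0.35. Of 6 cell cycle genes dup, which licenses replication, rose by 0.51 and fzy, an activator of the anaphase-promoting complex, fell by 0.37. A second fzy probe set, not in the table, had 0.43 (limma adjusted p = 0.107), so the direction of fzy was not settled. Single listed members of other lists were the Hippo pathway gene Mer, which fell by 0.52, and the septate junction gene Fas3, which fell by 0.68. Of 3 listed tRNA synthetase genes, ValRS rose by 0.53, and the others, at 0.11 and 0.28, did not pass. The calls of Cth, trx, fzy and Cda4 were lost in each of the 6 refits, those of ash2, Eip74EF, dup and Gld in 5 of 6, that of ValRS in 4 and that of Su(H) in 3. Gld also lost its fall under quantile normalization once more (log2 -0.06).

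Markers of other cell types were listed in part. Their counts stand beside 21.6% of all listed rows that rose and 23.6% that fell, and nothing is read from the counts alone. Of 5 blood cell (hemocyte) markers in the table, of 14 looked for, the phagocytic receptor gene eater rose, with 0.01, 0.49 and 0.62 in cut fragments, against -0.42, -0.82 and -0.89 in uncut ones, a rise of 2.12-fold (1.39 to 3.24, limma adjusted p = 0.0323). Hml, NimC1 and Sr-CI had log2 fold changes of 1.00, 0.78 and 0.70 (limma adjusted p = 0.0857, 0.109 and 0.128), and ush of -0.43 (0.0618). The mean over the 5 was -0.09, 0.19 and 0.33 on the cut arrays, against -0.38, -0.49 and -0.59 on the uncut arrays, and cut array 1, the highest for the growth lists, was the lowest of the cut arrays here. The eater call was lost without cut array 2 or 3 or uncut array 2 or 3 (highest adjusted p = 0.153). Of 6 listed myoblast and muscle markers, of 20, bt rose, while Mef2 and twi, transcription factors of the myoblasts beneath the disc, fell by 0.69 and 0.50. A second Mef2 probe set, not in the table, had -0.37 (limma adjusted p = 0.0822). The twi call stood in 1 of the 6 refits, with a highest adjusted p of 0.188 without uncut array 1. In such mixed tissue, fewer cells of a type and less RNA per cell cannot be told apart, and the part of these markers in other results was not tested. No neuron or glia marker of 5 passed in limma (2 had an unadjusted p under 0.05). Markers of fat body and host female, peripodial cells and either compartment were not listed, and of 8 markers of the leg disc epithelium only Scr and bab2 were, at -0.33 and -0.11 (limma adjusted p = 0.144 and 0.825). Since centred values hold no levels, the labelled tissue could not be checked by the abundance of its markers.

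The cut effect overlapped with those at 12 h in the anterior fragment and at 24 h in the posterior fragment, which share no arrays with it. At 12 h in the anterior fragment 951 rows passed (64.3%; 23.7% higher and 40.5% lower), against 8.77% of the array (3.15% higher and 5.62% lower). At 24 h in the posterior fragment 1134 rows passed (76.6%; 40.6% higher and 36% lower), against 9.77% of the array (4.78% and 4.99%). Of the 320 rows that rose here, 133 also rose in the anterior fragment at 12 h, which is 41.6% of the rises here and 37.9% of the 351 there. Of the 349 that fell, 274 also fell there (78.5% of the falls here, 45.7% of the 600 there). With the posterior fragment at 24 h, 243 rises were shared (75.9% and 40.4% of 601) and 215 falls (61.6% and 40.3% of 533), and 2 rows that fell here rose there. At 24 h in the anterior fragment 910 rows passed (61.5%; 38.3% higher and 23.2% lower), against 8.59% of the array (5.59% and 3.00%). In all 4 cut comparisons 208 rows changed in one direction, 99 up and 109 down. The authors' choice of rows by an overall test bears on all these shares.

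The gene lists are set side by side for the 3 comparisons, with the anterior fragment at 24 h given last. A list's difference between them was not tested as such. Ribosome-making genes that rose numbered 19 of 22 here, 5 in the anterior fragment at 12 h (where 1 fell) and 15 in the posterior fragment at 24 h. Respiratory genes that rose numbered 16, 3 and 25 of 31 in the same order, and for no gene of these lists was a difference from either comparison called. Cytoplasmic ribosomal protein genes that fell numbered 8, 11 and 2 of 14, and for 3 of them the 12 h posterior effect was called lower than that at 24 h. Immune genes that rose numbered 0, 10 and 12 of 13, and the difference was called for 2 against the anterior and for 3 against the 24 h effect, each lower here. Of the 8 glutathione transferase genes, 2 fell and none rose here, while 3 rose in the anterior fragment and 7 at 24 h, and for 5 of them the difference from 24 h was called. In the anterior fragment at 24 h, 19 ribosome-making, 31 respiratory and 2 immune genes rose. Of the cytoplasmic ribosomal protein genes 3 rose and 1 fell there, and of the glutathione transferase genes 0 rose and 1 fell. A low count of immune and glutathione transferase rises was thus shared with that comparison.

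The difference from the anterior effect was called for 42 probe sets (0.222%; 0.10% higher and 0.121% lower), 40 of them listed (2.70% of rows; 1.28% and 1.42%). Several of the largest differences belonged to genes with no call here and a large rise in the anterior fragment. MtnA, a metallothionein gene, had 0.71, 0.37 and 0.68 in cut and 0.25, 0.90 and 0.98 in uncut posterior fragments, against 2.42, 2.58 and 2.41 in cut and 0.20, -1.47 and -0.48 in uncut anterior ones. The difference of the 2 effects was -3.18 (-4.39 to -1.97, limma adjusted p = 0.0194). Tig, the integrin ligand tiggrin, had 1.11, 0.24 and 0.22 in cut and 0.83, 0.42 and 0.33 in uncut posterior fragments, and its difference was -2.14 (-2.90 to -1.39, limma adjusted p = 0.00884). PGRP-SA, a secreted sensor of bacterial wall, had 0.54, 0.36 and 0.47 in cut and 0.06, 0.12 and -0.08 in uncut posterior fragments, with a difference of -1.68 (-2.24 to -1.11, limma adjusted p = 0.00771). For MtnA and Tig the posterior groups overlapped, and for PGRP-SA the cut arrays stood a little above the uncut ones. Lst, the gene of the hormone limostatin, had the same pattern, with effects of -0.62 here and 2.18 in the anterior fragment and a difference of -2.79 (limma adjusted p = 0.0307). The size of the posterior fall of magu was smaller than that of the anterior fall, with a difference of 1.04 (0.58 to 1.49, limma adjusted p = 0.0448).

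CG14598 ran opposite to these. It had -0.04, 0.18 and 0.23 in cut and 0.47, -0.12 and -0.47 in uncut posterior fragments, against -2.79, -2.98 and -2.83 in cut and -0.23, -0.38 and 0.24 in uncut anterior ones, with a difference of 2.90 (2.12 to 3.69, limma adjusted p = 8.25e-04). Of the 42 probe sets, 38 differed between the cut posterior and cut anterior groups and 2 between the uncut ones. The 42 were picked on the cut difference minus the uncut difference. The share of the whole array that differed in each was not counted, so nothing is read from this split. The count of 42 ranged between 12 without cut anterior array 1 and 48 without cut anterior array 2. It was also under 28 without cut posterior array 2 or 3 (13 and 14), uncut posterior array 3 (17), cut anterior array 3 (20) and uncut anterior arrays 1 and 3 (27 and 13).

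The difference from the posterior effect at 24 h was called for 97 probe sets (0.512%; 0.0950% higher and 0.417% lower), 65 of them listed (4.39% of rows), 8 higher (0.541%) and 57 lower here (3.85%). The rise of Ilp8 was smaller at 12 h, by 1.96 on the log2 scale (interval -2.58 to -1.33, limma adjusted p = 0.00579). Its cut arrays had 1.65, 1.39 and 1.40 at 12 h, below 2.60, 2.50 and 2.37 at 24 h, and its uncut arrays were higher at 12 h than at 24 h, where they had -1.64, -1.30 and -1.37. GstD2, which fell here, rose at 24 h, with a difference of -3.71 (-4.95 to -2.47, limma adjusted p = 0.00579). At 24 h it had 1.16, 0.46 and 0.83 in cut and -0.78, -0.50 and -1.19 in uncut posterior fragments, and the uncut groups differed between the times by 3.43 (12 h minus 24 h, limma adjusted p = 3.66e-04) and the cut groups by -0.28 (0.85). Ddc, GstE6 and GstE7 had differences of -4.03, -4.20 and -3.95 (limma adjusted p = 0.0182, 0.035 and 0.00753). With only the compared arrays in the fit, those of GstE6 and GstE7 did not pass (limma adjusted p = 0.168 and 0.0852).

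bt and wbl ran the other way. The bt effect was 1.81 at 12 h and 0.47 at 24 h, a difference of 1.34 (0.76 to 1.92, limma adjusted p = 0.0246), and the wbl effect was 1.58 and -0.05, a difference of 1.63 (0.90 to 2.37, limma adjusted p = 0.0319). The falls of RpL12 and RpS9 were larger at 12 h, with differences of -1.35 and -0.90 (limma adjusted p = 0.00191 and 0.0174). For the second probe sets of RpL12 and RpS9 the differences were -0.43 and -0.24 (limma adjusted p = 0.471 and 0.783). Of the 97 probe sets, 31 differed between the uncut groups and 38 between the cut groups of the 2 times. These too were picked on the cut difference minus the uncut difference, with no share of the whole array counted, so nothing is read from the split. The count of 97 ranged between 25 without cut 12 h array 3 and 318 without uncut 24 h array 2. It was 41, 47, 31, 38 and 59 without cut 12 h array 2, uncut 12 h array 3, uncut 24 h array 1, uncut 24 h array 3 and cut 24 h array 2, and 152 without uncut 12 h array 1.

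For 15 listed rows both differences were called, and 12 of them rose at 12 h in the anterior and at 24 h in the posterior fragment. CG13215 had 0.60, 0.68 and 0.29 in cut fragments at 12 h, against 1.28, 2.34 and 2.61 in uncut ones, with effects of -1.56 here, 2.50 in the anterior fragment and 3.43 at 24 h. Its differences were -4.06 and -4.99 (limma adjusted p = 0.0307 and 0.00582). The 1 row of the 15 that passed here was atilla, a surface protein gene known from lamellocyte blood cells, named after its values were seen. It had -0.26, -0.33 and -0.35 in cut fragments, against 0.33, 0.46 and 0.62 in uncut ones, and fell by 0.78 (limma adjusted p = 0.00321), with effects of 0.36 in the anterior fragment and 0.51 at 24 h.

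**Figure D5:**
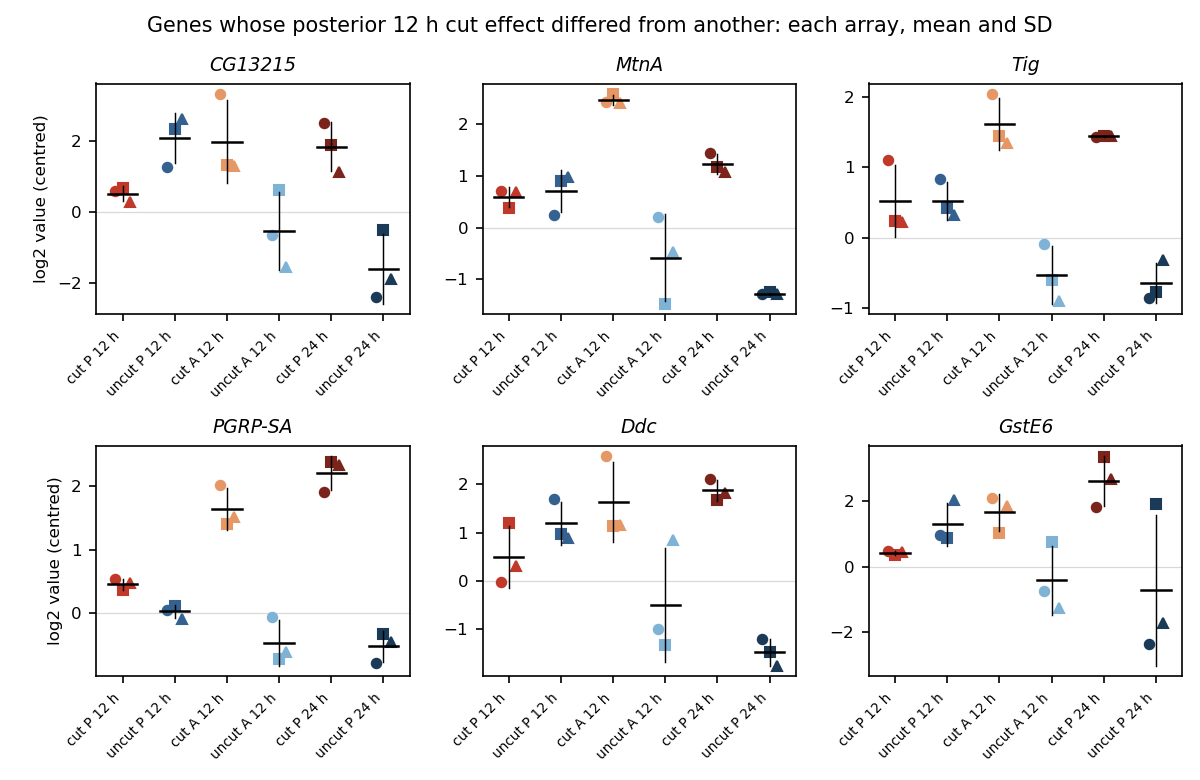
Log2 values of 6 genes on each array of 6 groups (cut and uncut, posterior P and anterior A, 12 and 24 h; circle, square and triangle are arrays 1, 2 and 3; bars are the mean, lines the SD, n = 3 a group). In every panel the mean of cut lies above that of uncut in the anterior fragment at 12 h and in the posterior fragment at 24 h, and in the first 2 columns of each panel, the posterior fragment at 12 h, only PGRP-SA has all cut arrays above all uncut ones.

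Few rows passed in the 12 h posterior comparison and in no other, namely 12, of which 1 rose and 11 fell. For 3 of the 12 a difference from the anterior 12 h or posterior 24 h effect was itself called, and for none were both. Among them, chosen after their values were seen, RpL12 fell on the probe set above, and CG8908 had -0.71, -0.56 and -0.25 in cut fragments, against 0.98, 0.25 and 1.10 in uncut ones, with a fall of 1.28 (limma adjusted p = 0.00115). CG7988 had -0.08, -0.40 and -0.41 in cut and 0.66, 0.33 and 0.39 in uncut fragments and fell by 0.75 (limma adjusted p = 4.45e-04). Their differences from the 24 h effect were -1.72 and -1.04 (limma adjusted p = 0.00909 and 0.00579).

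The threshold was also passed by 279 probe sets that are not in the authors' table, 58 higher and 221 lower, of which 182 have a gene name here through the authors' culture table. That table was filtered on culture comparisons, uncut 12 h against fresh posterior discs among them. A gap between those groups could thus be part of why these genes have names. CG8620 had -0.41, -0.44 and -1.27 in cut fragments, against 1.48, 4.09 and 5.04 in uncut ones and -2.83, -2.68 and -3.02 in fresh discs, an 18.9-fold fall (3.9 to 91.8, limma adjusted p = 0.0244). Gadd45, a stress-inducible gene, had 0.17, 0.23 and -0.02 in cut and 0.06, 2.25 and 2.61 in uncut fragments, a 2.85-fold fall (1.65 to 4.91, limma adjusted p = 0.02) in which uncut array 1 lay among the cut arrays. CG11893, CG15784 and CG15096 fell by 1.93, 1.53 and 1.60 on the log2 scale. In CG8620, Gadd45 and CG15784, as in GstD2, uncut arrays 2 and 3 were the high ones. The calls rested on few arrays: CG8620 and Gadd45 passed in 1 of the 6 refits each, CG15096 in 2, CG11893 in 4 and CG15784 in 5. All 5 were lost without uncut array 3, where the adjusted p was 0.148 for CG8620, 0.177 for Gadd45, 0.266 for CG15096, 0.134 for CG11893 and 0.0511 for CG15784. With only the compared arrays, CG11893, CG15096 and Gadd45 were lost as well (0.0579, 0.106 and 0.158).

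Among the rises outside the table, mey, which encodes a zona pellucida domain protein, had 0.90, 0.73 and 0.82 in cut fragments, against -1.19, -0.24 and -0.76 in uncut ones, with 2.33, 2.18 and 1.55 in fresh discs. It rose 2.92-fold (1.7 to 5.02, limma adjusted p = 0.0168), in 2 of the 6 refits. Jhbp2 (listed as CG2016) had 0.68, 0.87 and 0.70 in cut and -1.21, 0.06 and -0.55 in uncut fragments and rose 2.5-fold (1.61 to 3.86, limma adjusted p = 0.0113). As for wbl and ImpE1, the mey cut arrays lay between the uncut cultured and the fresh arrays, and for Jhbp2 they overlapped with the fresh ones, at 1.16, 0.94 and 0.63. Since mey and Jhbp2 were named only through the culture table, nothing is read from the gap between their uncut cultured and fresh arrays.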

How the data were processed

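Expression was measured on 30 Affymetrix arrays, 3 in each of 10 groups assigned from the sample titles. The values are log2 values that the authors deposited. Per the submitters' processing notes they were normalized with RMA (robust multi-array average) and tested with limma; no version, array annotation or genome build is given in the sources used here. Base 2 is RMA's convention and is not written in the files. Each probe set is centred on its mean over the arrays, so no absolute level is known. The deposited tables add log fold changes, an overall adjusted p-value and a k-means cluster. The group means of the value table gave the deposited log fold changes (largest difference 1.3e-09), and the refit gave the overall adjusted p within 1% for all 1480 rows.

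limma 3.58.1 in R 4.3.3 was fitted to all 30 arrays and 18952 probe sets with 1 mean a group, and tests were two-sided. On simulated data the script was checked for recovery of seeded changes. Gene names came from the 2 deposited tables (3293 probe sets; 15659 are unnamed here) and were brought to current symbols with RefSeq's gene table: 1015 rows matched a symbol, 331 a synonym and 19 kept the file's name. Named genes were the 12 largest rises and 12 largest falls with 1 gene name, the 5 smallest p, the 5 largest differences from each other comparison, called members of the wound, JNK, JAK/STAT and cell marker lists, and up to 4 of each other list, with the probe set of smallest p for each gene. Uncalled list members are named with values only. Members and lists were chosen with earlier results of these data known. Alternatives covered the arrays in the fit, the replicate block, normalization, array weights, thresholds and leaving out arrays. The labels call the 3 samples of a group biological replicates.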

Additional observations from a re-analysis of the deposited data

Results flagged for a closer look

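The cut effect in the 12 h posterior fragment differed from that in the 12 h anterior fragment for 42 probe sets by a limma test of the difference itself. Among named genes, the posterior minus anterior difference on the log2 scale was -4.06 for CG13215, -3.18 for MtnA, -2.79 for Lst, -2.14 for Tig, 1.04 for magu and 2.90 for CG14598.

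The same test against the 24 h posterior effect picked 97 probe sets. The 12 h minus 24 h difference was below 0 for CG13215 (-4.99), GstE6 (-4.20), Ddc (-4.03), GstE7 (-3.95), GstD2 (-3.71), MtnA (-2.63), Tig (-2.09), Ilp8 (-1.96), RpL12 (-1.35) and RpS9 (-0.90). It was above 0 for mey (2.29), Jhbp2 (2.0), wbl (1.63) and bt (1.34). No cause of these differences was tested.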

How the results depend on the processing

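With array weights 2589 probe sets passed (895 higher, 1694 lower; 1055 listed), with 11 proteasome genes, 149 differences from the anterior and 384 from the 24 h effect. Quantile normalization once more gave 2186 (902 higher, 1284 lower; 1042 listed) and 12 proteasome genes, turned MtnA to 0.30 and Tig to 0.20, raised bt to 3.24 like the other large rises, and ended 6 named calls: GstD2 (-1.27), Gld (-0.06), the anterior differences of MtnA (-2.84) and Lst (-2.68) and the 24 h differences of GstE6 (-3.68) and Ddc (-3.69). Quantile normalization here ran on values already centred for each probe set. It forces the deviations of all arrays onto the same distribution, so its shifts in size and in calls are given without a reading. With only the compared arrays, 4 proteasome genes rose and 168 anterior differences passed. That setting ended 9 named calls. They were CG11893, CG15096, Gadd45, Su(H), Eip74EF, Rpt5 and twi (limma adjusted p = 0.0579, 0.106, 0.158, 0.0739, 0.0773, 0.063 and 0.108) and the 24 h differences of GstE6 and GstE7 (0.168 and 0.0852). CG13215, not called in the main fit, passed there (0.0193). At an adjusted p under 0.01, 330 passed (132 higher, 198 lower; 311 listed), with 9 ribosome-making, 5 mitochondrial ribosomal, 7 respiratory, 0 proteasome, 1 JNK and 1 JAK/STAT genes rising, 4 cytoplasmic ribosomal protein genes falling, and 9 and 23 differences from the anterior and 24 h effects. At 1.5-fold or more, 427 passed (159 higher, 268 lower; 330 listed), with 11, 4, 3 and 0 genes of the 4 growth lists and 1 JAK/STAT gene rising and 3 cytoplasmic ribosomal protein genes falling. Alternatives chosen after seeing the data were the robust prior (22 anterior differences), leaving out control probe sets, the largest-p probe set for each listed gene, and leaving out both number 1 arrays (579 passed, 132 higher, 369 listed; 8, 4, 5 and 0 growth-list genes, 0 JNK and 1 JAK/STAT; 28 named calls were lost). The cause of these shifts was not tested.

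Leaving out 1 array gave 395 to 876 calls (148 to 315 higher, 228 to 561 lower; 334 to 580 listed). Genes rising numbered 9 to 18 for ribosome making, 4 to 14 for mitochondrial ribosomal proteins, 6 to 13 for the respiratory chain, 0 to 6 for the proteasome, 1 to 2 for JNK and 1 to 2 for JAK/STAT. Cytoplasmic ribosomal protein genes that fell numbered 4 to 10, and differences 12 to 48 from the anterior and 25 to 318 from the 24 h effect. Tig, at -0.01, ranged between -0.30 and 0.15 and was above 0 without cut array 2 (0.13), cut array 3 or uncut array 1 (0.15 each). MtnA ranged between -0.35 and 0.01 and CG14598 between -0.06 and 0.41, both turning without uncut array 3. Same-numbered cut and uncut arrays had residual correlations of 0.18, 0.04 and 0.05, against -0.12 to 0.11 for arrays with different numbers. The value of the number 1 arrays was the highest, and whether they share a source of variation was not tested. The main fit did not take the numbers as pairs. With the replicate block 1053 probe sets passed, and no named result changed its call. The dim-probe filter, the intensity trend and the highest-mean probe set were not run, since centred values hold no levels. For the same reason signal over background is unknown here.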

Other observations

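Some members of the gene lists passed outside the authors' table. Of 11 named endoplasmic reticulum folding genes outside it 2 passed, and of 5 cell death genes 2. Of 5 immune, 5 matrix and 16 cuticle genes outside it, 1 passed in each list. Over the whole array 1.99% of probe sets were higher and 3.01% lower. Genes outside the table have names only through the culture table, filtered on comparisons that include uncut 12 h against fresh posterior discs. That filter shares the uncut 12 h arrays, so the whole-array shares are not a matching background. No theme is read from these few genes. Cnx99A and Manf, an endoplasmic reticulum chaperone and a secreted factor linked to folding stress, rose by 0.59 and 0.41 on the log2 scale (limma adjusted p = 0.00793 and 0.0469), beside wbl in the table. Cnx99A had 0.23, -0.02 and 0.13 in cut fragments, against -0.46, -0.47 and -0.51 in uncut ones. The caspase gene Dcp-1 fell by 0.44, the inhibitor of apoptosis Diap2 (listed as Iap2) by 0.45, the immune transcription factor Rel by 0.46 and trol, the basement membrane perlecan, by 0.54 (limma adjusted p = 0.0148, 0.0289, 0.0181 and 0.0209). The cuticle gene Cpr51A fell by 1.16, with -0.66, -0.22 and -0.33 in cut fragments, against 0.43, 0.86 and 0.98 in uncut ones (limma adjusted p = 0.0166). For Cnx99A and Cpr51A the groups did not overlap, which held for 23.4% of probe sets over the whole array.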
